A study of Homo sapiens with 20 samples.

Results

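Chromatin accessibility was compared between Mock-treated and decitabine (DAC)-treated A549 cells, a human lung adenocarcinoma line, from the lists of Omni-ATAC-seq peaks called in each library. The members were chosen by label, as all peaks of the A549 Mock list (58734) and all peaks of the A549 DAC list (78199), which are 136933 of the 591387 peaks listed for the 8 Omni-ATAC-seq libraries of the series. The series holds 20 libraries, of which 12 are mRNA-seq, in lung cancer lines with 1 library per line, treatment and assay. Both A549 groups are the same cell line, and DAC was given at 100 nM for 72 h and followed by 3 days without drug, and Mock cells are the untreated side of the same line. Each treatment therefore has 1 Omni-ATAC-seq and 1 mRNA-seq library, no difference between A549 Mock and A549 DAC has a replicate check, and no p-value was computed for any of them. Intervals are 95% intervals that cover counting error only. They are exact, except that of the ratio of peak counts by CpG content. That one is a normal approximation that takes the counts of both lists as independent, though shared peaks are counted in both.

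ATAC-seq cuts DNA with the transposase Tn5 where it is not wrapped in nucleosomes, so that peaks mark open promoters, enhancers and other regulatory DNA. DAC is a cytidine analog that is built into replicating DNA and traps DNA methyltransferases, so that the methyl groups on cytosines of CpG dinucleotides are diluted as cells divide. Promoters rich in CpG, among them those of many germline genes, can be held silent by methylation in somatic and cancer cells, and such genes are a known class of targets of this drug. DNA methylation itself was not used here.

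The A549 mRNA-seq libraries carried markers of their label, though not all at a high level. In Omni-ATAC-seq 7 of the 8 A549 and epithelial markers had a listed promoter peak in both lists, and AKR1C1 had none. In mRNA-seq the keratins KRT8, KRT18 and KRT7 stood at 1578, 1405 and 574.2 FPKM (fragments mapped to a gene, scaled to its length and to the size of the library) in Mock and at 1021, 832.2 and 327.7 after DAC, and the aldo-keto reductase AKR1B10, which A549 cells make in large amounts, at 2903 and 500.8. The reductase AKR1C1 had 437.3 and 124.6 FPKM. CDH1 and EPCAM stood higher after DAC, with 24.8 and 39.7 FPKM and with 3.19 and 5.74. GATA6 was low, with 0.935 and 0.812. The summed FPKM of the 8 A549 and epithelial markers was 6926 in Mock and 2853 after DAC, and 2 of the 8 were at least 2-fold lower. Markers of other cells were low, though the leukocyte marker CD14, at 4.23 and 7.38 FPKM, stood above EPCAM and GATA6 in both libraries. The 6 fibroblast markers summed to 1.12 and 4.29 FPKM, with DCN at 0 in both libraries and COL1A1 the highest at 1.07 and 3.37. The 3 that could be compared were all at least 2-fold higher. Of these, PDGFRB and COL1A2 were under 0.1 FPKM in Mock, were tested only through their level after DAC and could not be called lower. With 1 FPKM added to each value before the ratio, 1 of the 3 was higher. The 7 leukocyte markers in the table summed to 4.24 and 7.59 FPKM, nearly all of it CD14, with CD3D at 0 in both and PTPRC at 0 and 0.0236. Their part in the results was not tested, and in bulk libraries fewer cells of a type and less RNA per cell cannot be told apart. The mRNA-seq libraries hold 24686736 (Mock) and 24720109 (DAC) reads on genes. The read depth of the Omni-ATAC-seq libraries is unknown here, and the deposited fold enrichment of a peak is over the local background of its own library, so that a longer list cannot be told apart from a deeper or cleaner library.

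Sequences of 5 promoters that had a peak after DAC and none in Mock are shown first, because their mRNA was among the most raised. Each is the 200 bases before the annotated start of the gene on build GRCh37 (hg19), written 5′ to 3′ on the strand of the gene, with every CpG in capitals. MAGEB2 and GCNA are X-linked germline genes, and PNMA5 is an X-linked member of the paraneoplastic antigen family. GTSF1 is a cofactor of the piRNA pathway, which silences transposons in germ cells, and KRT17 is a keratin of basal epithelium. They hold 14, 15, 15, 7 and 7 CpG. The like windows of SSX1, SSX3 and MAGEA1, whose mRNA was also among the most raised, hold 2, 7 and 8. The 5 shown therefore do not give the range.
MAGEB2 (chrX:30233480-30233679, + strand): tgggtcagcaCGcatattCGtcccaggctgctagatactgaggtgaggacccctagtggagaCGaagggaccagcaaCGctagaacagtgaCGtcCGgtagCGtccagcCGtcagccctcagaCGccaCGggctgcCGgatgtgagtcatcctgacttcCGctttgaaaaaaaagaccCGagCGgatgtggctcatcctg
GCNA (chrX:70798087-70798286, + strand): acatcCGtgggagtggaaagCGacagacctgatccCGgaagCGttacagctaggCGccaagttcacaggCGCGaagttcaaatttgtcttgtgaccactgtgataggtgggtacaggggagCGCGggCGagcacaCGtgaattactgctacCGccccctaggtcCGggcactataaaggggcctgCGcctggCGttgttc
PNMA5 (chrX:152162661-152162860, - strand): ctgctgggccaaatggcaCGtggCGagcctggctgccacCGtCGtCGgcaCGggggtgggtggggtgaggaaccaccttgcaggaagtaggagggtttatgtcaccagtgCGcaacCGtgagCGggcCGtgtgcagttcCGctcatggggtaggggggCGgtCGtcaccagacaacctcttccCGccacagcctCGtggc
GTSF1 (chr12:54867387-54867586, - strand): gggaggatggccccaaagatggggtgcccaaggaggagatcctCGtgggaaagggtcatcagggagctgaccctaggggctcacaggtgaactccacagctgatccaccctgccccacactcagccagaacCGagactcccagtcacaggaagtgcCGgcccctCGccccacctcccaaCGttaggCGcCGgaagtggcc
KRT17 (chr17:39781095-39781294, - strand): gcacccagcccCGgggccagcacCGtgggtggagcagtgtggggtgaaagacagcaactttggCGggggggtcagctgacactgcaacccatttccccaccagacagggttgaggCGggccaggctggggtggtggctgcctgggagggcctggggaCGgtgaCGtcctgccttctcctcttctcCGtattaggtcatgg

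Distal regions were poorer in CpG, with a median of 5 in the central 300 bp of DAC-only peaks against 8 near promoters. The centres of DAC-only peaks listed for DCLK1 and NCAM1 and of a Mock-only peak listed for GLIS3 are given in the same way, on the + strand, 200 bases each, because they are among the strongest peaks found in 1 list alone and none of the 50-base words searched in them repeats in the genome. They hold 1, 1 and 3 CpG. Other strong DAC-only peaks without repeated words differed, with 4 CpG for MIR3143, 9 for RPTOR, 1 for WDR11 and 0 for KIAA1324L.
DCLK1, DAC-only (chr13:36311412-36311611): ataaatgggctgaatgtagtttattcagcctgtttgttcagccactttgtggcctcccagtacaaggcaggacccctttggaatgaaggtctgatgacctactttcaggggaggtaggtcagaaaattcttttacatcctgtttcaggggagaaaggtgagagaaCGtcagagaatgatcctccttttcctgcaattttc
NCAM1, DAC-only (chr11:112498610-112498809): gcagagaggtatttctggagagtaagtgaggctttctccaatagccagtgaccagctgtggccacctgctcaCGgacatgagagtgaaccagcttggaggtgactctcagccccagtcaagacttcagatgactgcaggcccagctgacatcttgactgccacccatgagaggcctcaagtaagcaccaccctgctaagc
GLIS3, Mock-only (chr9:4315677-4315876): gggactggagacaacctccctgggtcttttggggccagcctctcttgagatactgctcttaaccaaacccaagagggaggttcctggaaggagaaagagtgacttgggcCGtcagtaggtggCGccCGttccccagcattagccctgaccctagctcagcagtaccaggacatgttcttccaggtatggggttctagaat

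The A549 DAC list was longer than the Mock list and covered 44.2 Mb against 33.99 Mb. Of the DAC peaks, 34590 (44.2%, interval 43.9 to 44.6%) overlapped no Mock peak by as little as 1 bp, and of the Mock peaks 15155 (25.8%, interval 25.4 to 26.2%) overlapped no DAC peak. The remaining 43609 DAC and 43579 Mock peaks were shared. Merging both lists gave 93060 regions, of which 37.1% were DAC-only and 16.2% Mock-only. Peaks found in 1 list alone were narrow, weak and far from transcription start sites (TSS), on either side. Their median width was 346 bp for DAC-only and 313 bp for Mock-only peaks, against 580 and 545 bp for shared peaks of the DAC and Mock lists. The median fold enrichment was 3.24 and 3.29, against 4.85 and 5.04. Peaks within 3000 bp of a TSS made up 10.8% of DAC-only (interval 10.5 to 11.1%) and 10.7% of Mock-only peaks (interval 10.2 to 11.2%), whose intervals overlap, and 37.8% and 37.7% of shared peaks. DAC-only peaks lay in exons more often than Mock-only peaks (6.31% against 4.57%) and slightly less often in distal intergenic DNA (41.1% against 42.6%). Both orders turned with equal peak numbers by fold enrichment, to 5.13% against 5.36% in exons and 44.6% against 39.3% in distal intergenic DNA.

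The share of DAC peaks without a Mock counterpart dropped steeply with strength. It was 72.6% at a fold enrichment under 3, 64.0% from 3 to 4, 30.7% from 4 to 5 and 3.08% at 8 or more. The Mock list had the same shape at a lower level, from 49.95% under 3 to 1.10% at 8 or more. At a TSS, 6.55% of DAC peaks and 2.42% of Mock peaks were without a counterpart, and beyond 100000 bp from any TSS 61.0% and 41.9% were. The lists parted mostly at weak distal sites.

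**Figure D1:**
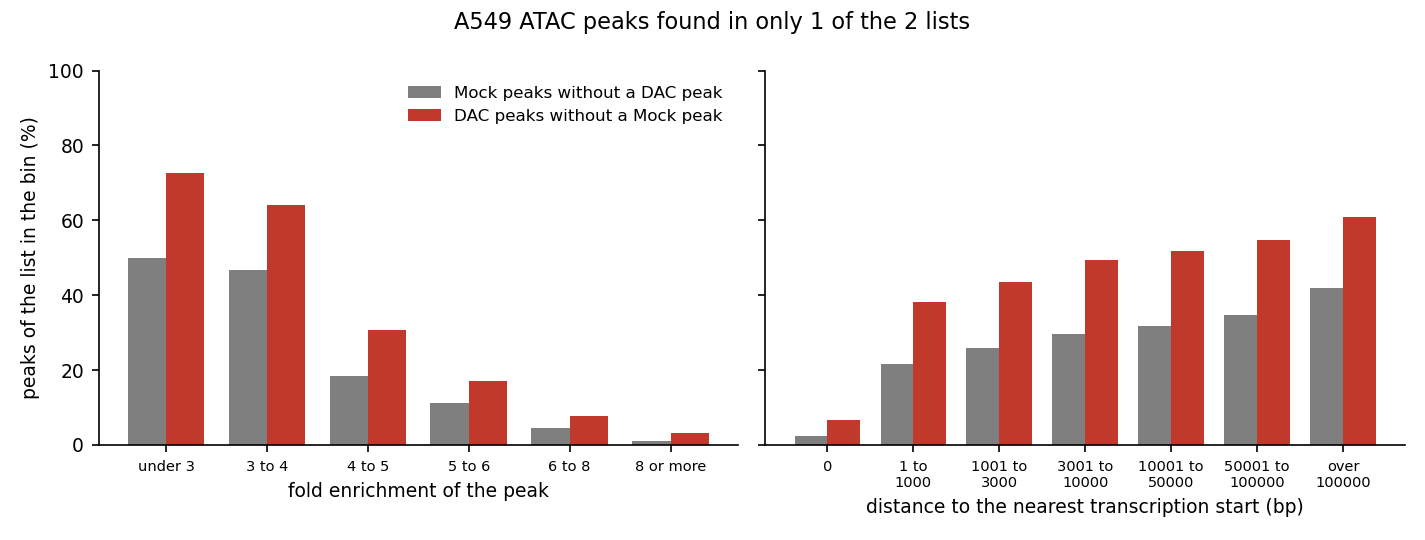
Share of A549 peaks (y axis, percent of the peaks of the same list in the bin) without an overlapping peak in the other treatment, by fold enrichment of the peak (left) and by distance to the nearest TSS in bp (right), 1 library per treatment. The share is higher for DAC than for Mock in each bin, and in both lists it is lowest at the strongest peaks (3.08% and 1.10%) and at the TSS (6.55% and 2.42%).

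The comparison was repeated with equal peak numbers, which by construction leaves nearly as many one-sided peaks on either side. Keeping the 58734 DAC peaks with the highest fold enrichment, which sets a lower limit of 3.15 and drops 19465 peaks of which 74.1% overlapped no Mock peak, 20166 DAC peaks (34.3%) and 20102 Mock peaks (34.2%) were without a counterpart. The place of one-sided peaks depended on how the list was trimmed. Trimmed by fold enrichment, peaks within 3000 bp of a TSS made up 9.02% of DAC-only and 15.3% of Mock-only peaks, and trimmed by q-value 11.64% and 11.44%. The other 3 pairs of libraries had the same order when trimmed by fold enrichment, with 7.91 to 8.46% for DAC-only and 13.8 to 16.8% for Mock-only peaks. Among the 42975 shared peaks that pair one to one, the median ratio of fold enrichment, DAC over Mock, was 0.957 and the median ratio of width 1.01. Width differed by place, with a ratio of 1.03 over 26826 distal pairs and 0.997 over 16149 promoter pairs. Fold enrichment ranked the pairs alike in both libraries (Spearman's rho 0.881 across peaks, which are not independent replicates).

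A few shared promoter peaks differed widely in strength. They were picked by percentile of fold enrichment within their list, on which 68.3% of promoter pairs stood higher in DAC, as the lists differ in length, so their fold enrichment is given instead. The promoter peak listed for ABI2, an adaptor of the actin-regulating WAVE complex, had 3.15 in Mock and 7.07 in DAC, that of TRAK1, a kinesin adaptor for mitochondria, 3.36 and 8.89, and that of PIWIL2, a piRNA-binding germline protein, 3.20 and 6.82. In the other direction the peak of TMEM184A had 5.24 and 1.87, that of FCSK, the fucose kinase, 7.49 and 3.15, and that of HCN4, a cardiac pacemaker channel, 5.11 and 2.75. At TMEM184A, HCN4 and PARD6G the DAC peak was wider than the Mock peak, with 1459 against 424 bp at TMEM184A and 1839 against 564 bp at HCN4, and at TRAK1 and PIWIL2 the Mock peak was the wider one. As the deposited fold enrichment is an average over the whole peak, width and strength are not independent here.

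DAC-only peaks held more CpG than Mock-only peaks. In the central 300 bp of peaks over 3000 bp from a TSS, DAC-only peaks held a median of 5 CpG (mean 6.49 ± 5.62, SD over 30771 peaks), Mock-only peaks 3 (4.60 ± 4.51, 13515 peaks) and shared peaks 5 (7.97 ± 8.06, 26979 peaks). The classes overlap widely, since the SDs are close to the means. At least 10 CpG were found in 19.99% of DAC-only, 9.40% of Mock-only and 25.6% of shared distal peaks, and no CpG in 3.21%, 6.36% and 2.91%. The median GC content was 54.0%, 51.0% and 54.3%. With equal peak numbers, 20.1% of DAC-only and 12.3% of Mock-only distal peaks held at least 10 CpG. Near promoters, one-sided peaks of both kinds avoided CpG-dense DNA. The median was 8 CpG for DAC-only, 6 for Mock-only and 26 for shared promoter peaks. A CpG island-like composition (GC of at least 50% and an observed to expected CpG ratio of at least 0.6) was found in 19.7%, 17.1% and 72.9% of them.

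Counted by CpG content, the DAC list had more distal peaks than the Mock list in every bin, and the ratio was largest at intermediate density. With no CpG there were 1773 DAC and 1682 Mock peaks, a ratio of 1.05. The ratio was 1.19 at 1 to 2 CpG, 1.40 at 3 to 5, 1.59 at 6 to 9 and 1.74 at 10 to 19 (9626 against 5532 peaks). At 20 or more CpG it was 1.364. At equal peak numbers the ratios were 0.815, 0.875, 1.01, 1.10, 1.239 and 1.15 over the same bins, so that peaks poor in CpG were fewer after DAC and peaks with 6 CpG or more were more frequent. The ratio at 10 to 19 CpG was 1.49 times that at 0 to 2 CpG (approximate interval 1.43 to 1.56), and 1.43 times at equal numbers. CpG and GC content go together. Within 5-point strata of GC content from 40 to 65%, chosen after seeing the data, it was 1.41, 1.45, 1.21, 1.18 and 1.28 times. The stratum from 40 to 45% holds only 32 Mock and 45 DAC peaks with 10 to 19 CpG. What else differs with GC content, such as amplification of the library, was not tested.

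**Figure D2:**
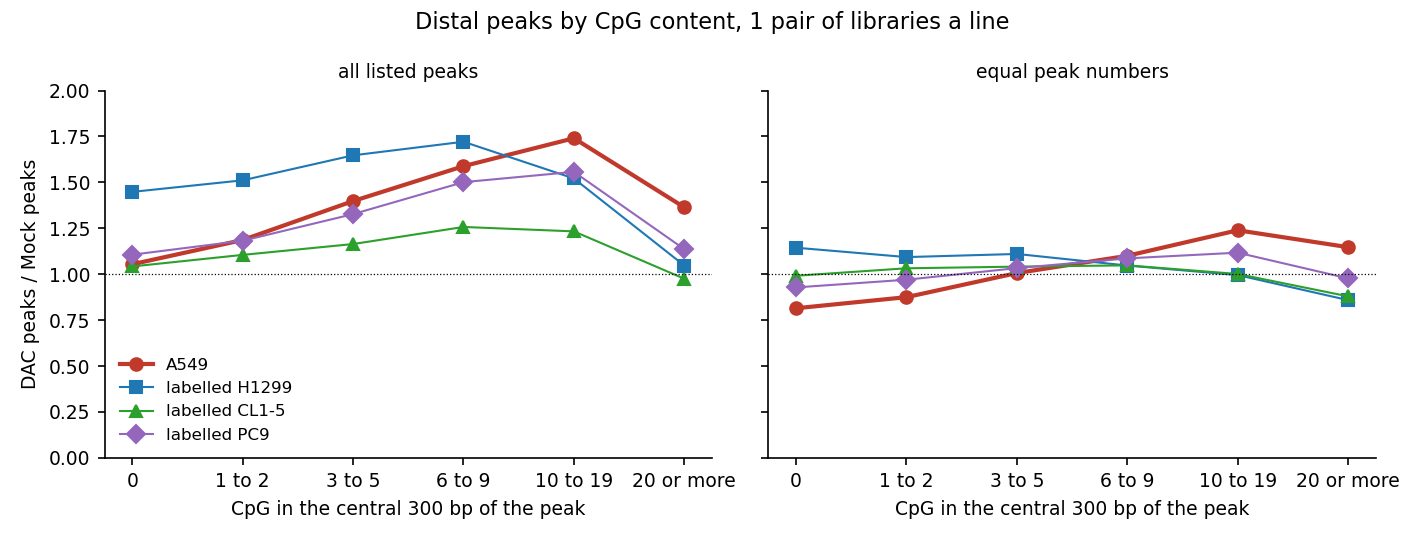
Number of distal peaks in the DAC list divided by that in the Mock list (y axis, ratio) against the number of CpG in the central 300 bp of the peak (x axis), for each pair of libraries, with all listed peaks (left) and with the longer list of each pair trimmed to equal numbers by fold enrichment (right). The A549 line climbs from 1.05 to 1.74 at 10 to 19 CpG with all peaks and from 0.815 to 1.239 at equal numbers, and it has no replicate.

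The other pairs of libraries show how far this holds elsewhere. The libraries labelled CL1-5 and PC9 carry the other name inside their files, so they are called by their labels. The ratio at 10 to 19 CpG over that at 0 to 2 CpG was 1.01 in H1299, 1.13 in the pair labelled CL1-5 and 1.33 in the pair labelled PC9. At equal numbers it was 0.903, 0.976 and 1.16, against 1.43 in A549. A549 had the largest value of the 4 pairs in both settings, but not once GC content was held. At 50 to 55% GC the pair labelled CL1-5 had 1.45 against 1.21 in A549, and at 55 to 60% it had 1.39 against 1.18, while A549 had the largest value in the other 3 strata, by 1.277 against 1.27 in the last. H1299 ran from 0.896 to 1.04 over the 5 strata. There is 1 value per line and no test of the difference.

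Motifs in the central 300 bp of distal peaks were searched as letters on both strands. They are FOXA (TGTTTAC), AP-1 (TGANTCA), CTCF core (CCACNAGNG) and the GATA-factor site (letters AGATAA), and a match is not a bound site. The FOXA letters, those of the pioneer factors of endoderm, were in 5.64% of DAC-only, 4.95% of Mock-only and 5.63% of shared distal peaks, and in 5.51% of all 71265 distal regions. As the share with a match can differ with the strength of a peak, classes were compared among distal peaks with a fold enrichment of at least 4. There the FOXA letters were in 512 of 5564 DAC-only peaks (9.20%, interval 8.46 to 9.99%), 189 of 2877 Mock-only peaks (6.57%, interval 5.69 to 7.54%) and 6.02% of the 16620 shared peaks (interval 5.67 to 6.39%). The interval of DAC-only peaks is above both others, but shared peaks can be stronger within this open bin. From 3 to 4 the FOXA letters were in 5.85% of DAC-only (interval 5.51 to 6.21%), 5.02% of Mock-only and 5.62% of shared peaks (interval 5.12 to 6.14%). Under 3 they were in 2.61%, 2.22% and 2.79%. The interval was thus above that of shared peaks at 4 or more alone. At a fold enrichment of at least 4, AP-1, the site of FOS and JUN factors, had the opposite order, with 17% of DAC-only (interval 16.02 to 18.02%), 21.7% of Mock-only (interval 20.2 to 23.2%) and 20.8% of shared peaks. GATA letters were in 10.2%, 13.0% and 9.72% of the 3 classes. CTCF letters were in 10.2%, 11.4% and 12.3%. In the other pairs, FOXA letters were in 5.92% of DAC-only and 3.87% of Mock-only peaks of H1299 at this strength, in 6.49% and 6.23% of the pair labelled CL1-5 and in 10.3% and 4.74% of the pair labelled PC9. AP-1 letters were in 9.96% and 25.8% of these classes in H1299 and in 14.9% and 35.5% in the pair labelled PC9, while the pair labelled CL1-5 had the opposite order, with 30.6% and 27.3%.

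The mRNA of the FOXA genes did not move one way. FOXA2 had 17.3 FPKM in Mock and 7.05 after DAC (2.45-fold lower) and FOXA1 5.16 and 3.10, while FOXA3 had 0.979 and 2.31 (2.36-fold higher). The endoderm factor HNF4A had 9.52 FPKM in Mock and 4.81 after DAC. All 4 genes had a listed promoter peak in both libraries. None of these 4 directions turned when FPKM was rescaled to a common sum in both libraries.

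Chromosome 18 stood apart from the other chromosomes in A549. It held 1386 DAC and 807 Mock peaks, a ratio of 1.72, while the ratio on the other autosomes and X ran from 1.198 (X) to 1.41 (chromosome 15). At equal peak numbers its ratio was 1.33, against 0.864 (chromosome 19) to 1.13 (chromosome 13). DAC-only peaks were 55.4% of its DAC peaks, against 44.2% over the whole list. The ratio differed along the chromosome. It was 1.21 in the first 10 Mb (165 DAC and 136 Mock peaks), 1.962 from 40 to 50 Mb, 2.11 from 60 to 70 Mb (112 and 53 peaks) and 2.05 in the last window (258 and 126 peaks). With at least 100 Mock peaks in a window, 4 windows of chromosome 18 ran from 1.21 to 2.05, and 208 windows on other chromosomes from 1.04 to 1.78 with a median of 1.31, of which 165 were above the lowest of chromosome 18. The shared pairs on chromosome 18 had a fold enrichment ratio of 0.922, below the 0.957 of all pairs. In the other pairs of libraries chromosome 18 had ratios of 1.48 (H1299), 1.15 (labelled CL1-5) and 1.19 (labelled PC9). The mRNA of its genes did not show a like excess. The median log2 difference of its 203 tested genes was 0.06, and 11 of them (5.42%) were at least 2-fold higher after DAC, while this was so for 13.2% of all genes tested. A cause was not tested.

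**Figure D3:**
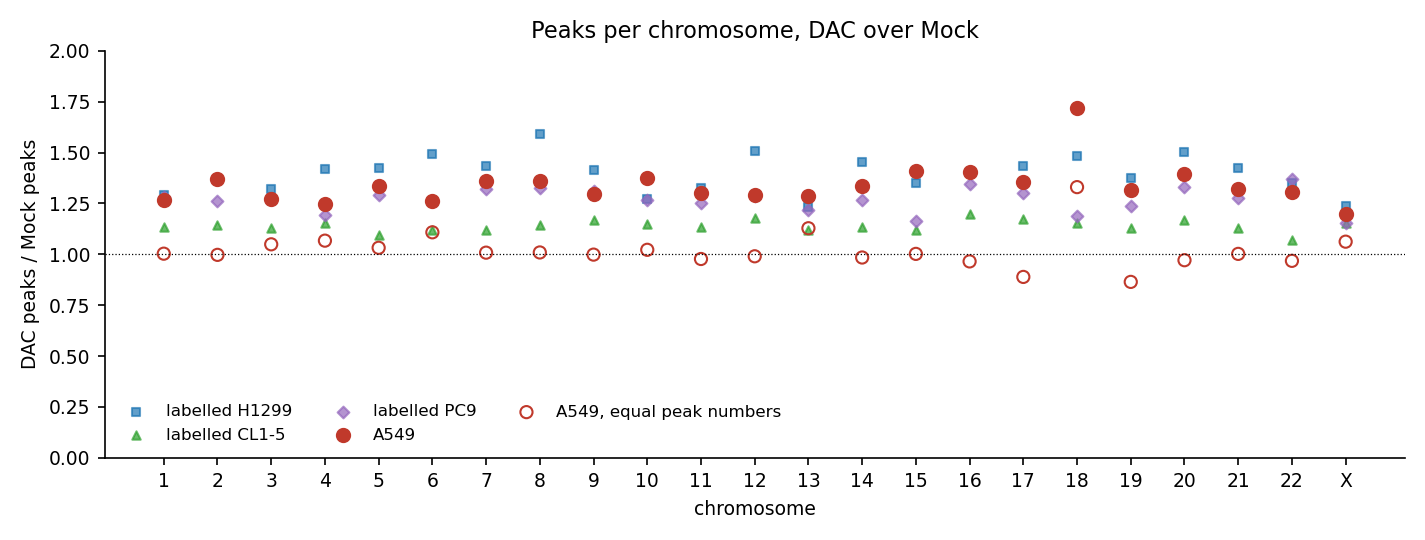
Number of DAC peaks divided by the number of Mock peaks on each chromosome (y axis, ratio) for A549 with all peaks (filled circles) and at equal peak numbers (open circles) and for the other 3 pairs of libraries (small marks). Chromosome 18 of A549 is at 1.72 and 1.33, and the other A549 chromosomes are at 1.198 to 1.41 and 0.864 to 1.13.

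Windows of 1 Mb gave the same asymmetry on a finer scale. Of 1602 windows with at least 20 regions, 1467 held more DAC-only than Mock-only regions and 92 the reverse. The window with the largest DAC-only share was on chromosome 22 from 48 to 49 Mb, where 24 of 30 regions were DAC-only and 2 were Mock-only, most often listed for the secreted protein TAFA5. It was followed by chromosome 18 from 75 to 76 Mb (17 of 22 regions, listed for the galanin receptor GALR1 and the transcription factor SALL3) and chromosome 10 from 113 to 114 Mb (15 of 20, around the adrenergic receptor ADRA2A). The largest Mock-only shares were on chromosome 3 from 31 to 32 Mb (12 of 23 regions, around STT3B and OSBPL10) and on chromosome 8 from 32 to 33 Mb (12 of 25, around the growth factor gene NRG1). These windows were picked for their shares, which are therefore a description.

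The strongest one-sided peaks were partly in repeated sequence. Of the 8 Mock-only peaks with the highest fold enrichment, 5 held 50-base words that occur more than once in the genome, including the first and second, listed for LINC01189 (19.7) and ULK4P3 (17.1). Of the 8 DAC-only peaks 2 did, listed for DEFB103A (18.6) and LOC100506585 (14.6). The strongest DAC-only peak was in unique sequence on chromosome 13 from 36311330 to 36311692, in an intron by the deposited annotation and 118306 bp from the nearest listed TSS, with a fold enrichment of 19.1. The peak listed for NCAM1, a neural adhesion molecule, was intergenic, at -332965 bp from the TSS, with a fold enrichment of 15.2. The peak listed for RPTOR, a subunit of the mTOR complex, was intronic with a fold enrichment of 13.5 and held 12 CpG in its central 300 bp. The GLIS3 peak, whose sequence is printed above, was intergenic with a fold enrichment of 12.5 in Mock. Of the DAC-only peaks in unique sequence, those listed for DCLK1, NCAM1, WDR11 and KIAA1324L held at most 1 CpG, RPTOR 12 and MIR3143 5.

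The DAC-only regions of A549 were then looked up in the other lines, whose libraries the A549 lists did not use. A region was counted as gained in a pair where it overlapped a DAC peak and no Mock peak of that pair, and as lost in the reverse case. Of the 34590 DAC-only regions, 14.7% were gained and 4.04% lost in H1299, 17.2% and 7.52% in the pair labelled CL1-5, and 21.0% and 5.72% in the pair labelled PC9. Gained minus lost was 10.6, 9.65 and 15.2 percentage points, with a mean of 11.8 ± 2.996 (SD, n = 3 pairs, exact two-sided sign-flip permutation test, p = 0.25, the smallest this design allows). All 3 DAC lists were longer than their Mock lists, and shared regions of A549 had a mean of 6.07 and Mock-only regions one of 4.52 points. At equal peak numbers in every pair, DAC-only regions had a mean of 8.16 ± 2.56 points (SD, n = 3 pairs, same exact test, p = 0.25), shared regions 0.61 and Mock-only regions -6.39. Each of the 3 pairs had this order. The DAC list was the one trimmed in all 4 pairs, by the same rule, so similar weak peaks can leave all of them together. The values at equal numbers can thus be partly built in, as Mock-only regions turned from 4.52 to -6.39 points with the trim. A trim by q-value was not run here. A sizeable part of DAC-only regions was open elsewhere without drug, as 44.2% overlapped a Mock peak of at least 1 other line. Of Mock-only regions 44.8% did. In 33.2% of DAC-only regions no peak of the 6 other libraries overlapped, against 39.5% of Mock-only and 5.46% of shared regions. Regions gained in all 4 pairs numbered 476, and 187 at equal peak numbers.

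Promoter accessibility was next set beside A549 mRNA. A gene was classed by the peaks listed for it within 3000 bp of its TSS, as open in both, gained (DAC alone), lost (Mock alone) or neither. Of 14999 genes with a peak listed in any library and at least 0.1 FPKM in either A549 library, 842 were gained (5.61%), 466 lost (3.11%), 11647 open in both (77.7%) and 2044 neither (13.6%). With equal peak numbers 591 were gained and 958 lost, so which of these is larger depends on the list lengths. Differences of mRNA are on the log2(FPKM + 0.1) scale, which understates the change of low genes, and a gene past 2-fold on that scale is called higher or lower. On it 1977 genes were higher after DAC (13.2% of those tested) and 758 lower (5.05%). With FPKM rescaled to a common sum the median of all genes moved from 0.07 to 0.41 and the calls to 3594 higher and 278 lower, so that levels are relative to the total.

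Genes with a gained promoter peak were higher after DAC more often than the others. Of the 842 gained genes 281 were higher (33.4%, interval 30.2 to 36.7%), against 9.66% of the 11647 genes open in both, 17.4% of lost and 24.0% of genes with neither. Genes under 0.1 FPKM in Mock enter this count only through their level after DAC, and they were 239 of the gained genes and 194 of the 281, so the count is a description. The gained genes were lowly expressed in Mock, with a median of 0.382 FPKM against 4.35 for genes open in both. Genes of similar level in Mock were therefore compared. From 0.1 to 1 FPKM in Mock, 29.2% of gained genes were higher (interval 23.8 to 35.0%), against 19.4% of genes open in both, 14.6% of lost genes and 19.5% of those with neither. From 1 to 10 FPKM, 3.72% of gained genes (interval 1.62 to 7.20%) and 5.50% of genes open in both were higher, and the interval includes the second value. The difference between these strata was not tested. Of the 1977 higher genes 1125 (56.9%) were open in both and 281 (14.2%) gained, against 77.65% and 5.61% of all genes tested. A gained peak was thus more frequent among higher genes than among all, though most higher genes had none.

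Genes with at most 3 reads in Mock were also compared, taken with no condition on their level after DAC. Of 722 such genes with a gained promoter peak, 43 reached 1 FPKM after DAC (5.96%, interval 4.34 to 7.94%). Of 1607 open in both 34 did (2.12%, interval 1.47 to 2.94%), of 288 lost 11 did (3.82%, interval 1.92 to 6.73%) and of 2255 with neither 45 did (1.996%, interval 1.46 to 2.66%). The interval of gained genes is above those of genes open in both and of genes with neither, and overlaps that of lost genes. This depended on the mark. More than 3 reads after DAC were found for 38.6% of gained genes and 40.95% of genes open in both. For lost genes and those with neither it was 31.6% and 25.6%. Most gained genes that were unread in Mock thus stayed under 1 FPKM. The mirror event was rare, as 12 of 3386 genes with at most 3 reads after DAC had 1 FPKM or more in Mock, and 0 of the 200 lost genes among them (exact interval up to 1.83%).

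**Figure D4:**
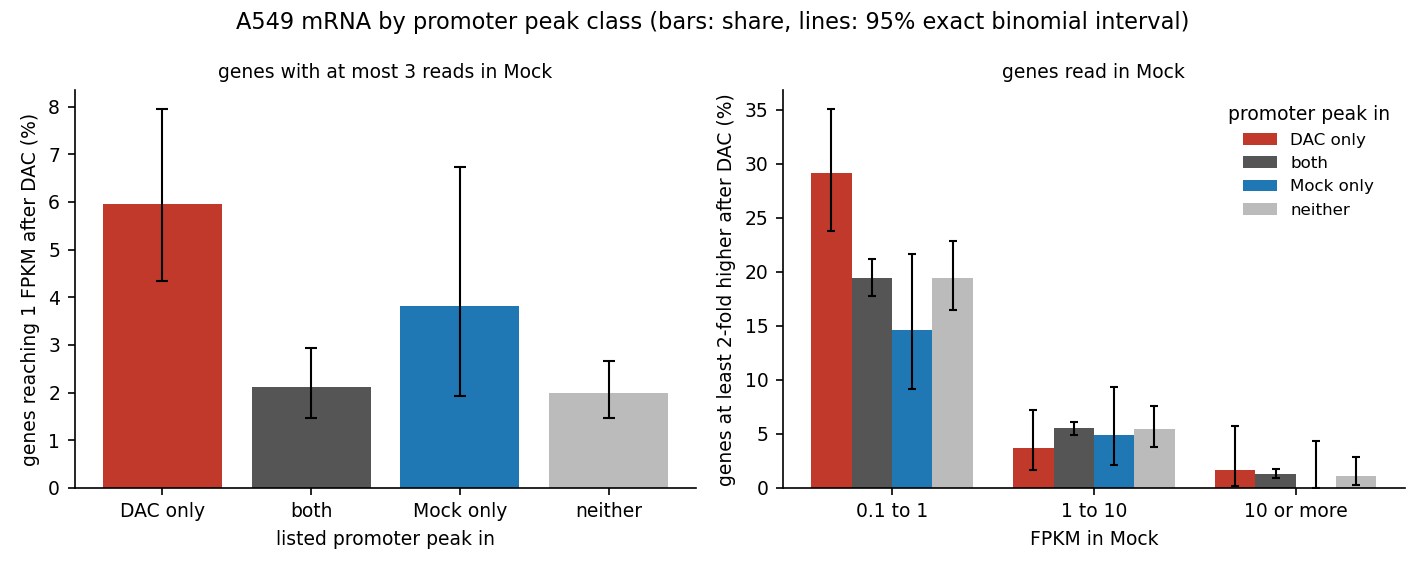
A549 genes by the list in which their promoter peak was found. Bars give the percent of genes with at most 3 reads in Mock that reached 1 FPKM after DAC (left) and the percent of genes at least 2-fold higher after DAC by FPKM in Mock (right), and lines give 95% exact binomial intervals. Gained (DAC only) genes have the highest share at left (5.96%) and at 0.1 to 1 FPKM (29.2%), and not from 1 to 10 FPKM (3.72%).

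Which TSS a peak is listed for matters. Each peak is listed for 1 gene, so the promoter peak of a divergent pair can be listed for one neighbour in Mock and for the other in DAC. Classed again by any peak within 3000 bp of an annotated TSS of the gene, 455 of the 842 gained genes were open in both libraries and 365 were gained by both rules. Of the latter 199 were higher (54.5%, interval 49.3 to 59.7%), against 16.3% of the former. The median FPKM in Mock was 0.107 and 2.23, so these groups also differ in level, and about as many of the 365 genes as not passed the 0.1 FPKM filter through the DAC library alone. Among the 365 genes the share that was higher was 52.8% at a fold enrichment under 3, 48.6% from 3 to 4, 63.4% from 4 to 5 and 71.2% at 5 or more (37 of 52 genes, interval 56.9 to 82.9%). The intervals of neighbouring bins overlap. Over all 842 gained genes the order was another, with 38.5%, 43.2%, 40.9% and 17.4% (49 of 281 genes), so no relation with strength can be read. The peaks of the 199 higher genes lay closer to the TSS (median 11.5 bp against 226 bp for the 166 others) and held a median of 10 CpG against 8.

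Loss of a promoter peak went with lower mRNA in a small part of genes. Of 466 lost genes 36 were lower (7.73%, interval 5.47 to 10.5%), against 4.94% of genes open in both. From 1 to 10 FPKM in Mock, 10.98% of lost genes (interval 6.64 to 16.8%) and 3.13% of genes open in both were lower. More lost genes were higher than lower, 81 against 36, but 53 of the 81 were under 0.1 FPKM in Mock. These were tested only through their level after DAC and could not be called lower, so the count is a description. From 1 to 10 FPKM in Mock, 8 lost genes were higher and 18 lower. By the annotated TSS 316 lost genes were open in both and 134 lost by both rules, and of the latter 33.6% were higher and 8.21% lower. The median of these 134 genes in Mock was 0.187 FPKM, so the same limit touches their shares.

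An excess of DAC-only distal peaks listed for a gene went with higher mRNA to a small extent. An excess of Mock-only ones did not go with lower mRNA. For each gene the number of Mock-only distal peaks was taken from that of DAC-only distal peaks. The share of higher genes was 10.8% at -2 or fewer, 12.75% at 0, 15.4% at 3 to 5 and 18% at 6 or more (interval 14.6 to 21.8%), and the share of lower genes 5.18%, 5.89%, 4.43% and 1.30%. The median log2 difference was 0.05 in the first group and 0.30 in the last. Among genes with a promoter peak in both lists, 13.5% were higher at a balance of 3 or more (interval 11.9 to 15.3%), 8.41% at 0 and 8.29% at -2 or fewer. Genes under 0.1 FPKM in Mock are in these shares too, only through their level after DAC.

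Of the 15 gained genes with the largest rise, 10 are on the X chromosome and most of those belong to families that are active in the germline and silent in somatic cells. MAGEA4 had 1 read in Mock and 5381 after DAC (0.0152 and 69.1 FPKM), a ratio of 4560 whose counting interval runs from 818 to 180000. Its DAC peak lay at -406 bp from the listed TSS, with a fold enrichment of 3.71. MAGEB2 had 1 and 733 reads (ratio 621, interval 111 to 24600) and a peak of 7.07 at its TSS. PNMA5 had 0 and 1044 reads, at least 295-fold higher against a floor of 3 reads. GTSF1, also unread in Mock, had 721 reads after DAC, at least 204-fold higher. PAGE2 and PAGE5 were at 0 in Mock and at 28.7 and 24.1 FPKM after DAC, at least 135-fold and 128-fold higher. SSX1, MAGEA1 and VCX3B had 3, 3 and 1 reads in Mock and 566, 504 and 335 after DAC. Families such as MAGE, PAGE, SSX, VCX and GAGE hold near-identical copies, between which reads cannot be told apart, and values of single members are uncertain.

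GCNA, a germ cell nuclear protein, was read in Mock, with 0.335 FPKM and 23.6 after DAC (70.3-fold higher, interval 47.9 to 108). IFI27, an interferon-induced gene, had 0.282 and 19.7 FPKM (70.0-fold, interval 47.3 to 108) and a peak of 3.81 at its TSS. KRT17 had 3 reads in Mock and 1938 after DAC (ratio 547, interval 187 to 2660), and its peak of 2.90 is not among the DAC peaks kept at equal numbers. KRT17 also has close copies in the genome. The peaks of ALPG, a germ-cell alkaline phosphatase, and SLC12A3, the thiazide-sensitive salt transporter, are below that limit too, at 2.87 and 2.64, and lay at 2895 and -1868 bp from the TSS. The other 12 of the 15 are gained at equal numbers as well, and all 15 are gained by the annotated TSS.

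Large rises were not limited to gained promoters. H19, an imprinted noncoding RNA, had 4.38 FPKM in Mock and 621.6 after DAC (142-fold, interval 126 to 161), and its promoter peak had a fold enrichment of 2.76 in Mock and 2.78 in DAC, below the limit set by equal peak numbers. NCCRP1, MYL9 (a myosin light chain) and HTRA3 (a secreted protease) were 115-, 68.4- and 58.7-fold higher, with promoter peaks in both lists that were weaker after DAC, at 5.43 against 6.75 for NCCRP1. PRSS21, a testis serine protease, had 0 and 196 reads, at least 55.3-fold higher, with a promoter peak of 3.12 in Mock and 2.95 in DAC. Among genes with no listed promoter peak, the GAGE genes had the largest rises, with GAGE2E at 0.345 and 475.3 FPKM. In families with near-identical copies, such as GAGE and MAGE, a peak can be missed as well, so the lack of one is uncertain. CTAG2, the cancer testis antigen LAGE-1, had 0 and 461 reads. MAGEA12 is classed as gained when the annotated TSS is used.

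Lost promoters had smaller differences. ANXA13, an intestinal annexin, had 9.09 FPKM in Mock and 2.30 after DAC (3.96-fold lower) and GABRD, a GABA receptor subunit, 1.31 and 0.349 (3.75-fold lower, 54 and 17 reads). ALDH1A1, a retinal dehydrogenase of very high level in A549, had 3351 and 1285 FPKM (2.61-fold lower). Its promoter peak of 4.33 was in the Mock list alone, and 12 Mock-only and 3 DAC-only distal peaks were listed for it. TYMSOS, CBY1, PARD6A, GNB1L and SLIRP were 2.50- to 2.91-fold lower and are open in both libraries by the annotated TSS, so that their loss is one of listing.

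Germline genes were the list with the most gained promoters. Of 30 listed genes 23 were tested, 21 were higher and none lower (median log2 difference 4.63, against 0.07 over all genes), most of them tested only through their level after DAC. Over the tested members 11 promoters were gained, 4 open in both, 1 lost and 7 without a peak. Several of the 7 are in families with near-identical copies, where the lack of a peak is uncertain. MAGEA6 and STK31 did not pass the 2-fold limit. DPEP3, a testis dipeptidase, and MAEL and TDRD12, which act in the piRNA pathway, had promoter peaks in Mock of 5.39, 3.97 and 3.23, with 0, 0 and 7 reads. DAZL, an RNA-binding regulator of germ cells, had a Mock peak of 3.25 and none after DAC, and 0 and 219 reads. ASZ1 had a DAC peak of 3.97 and 0 reads in both libraries, and RPL10L had one of 9.69 with 18 reads after DAC. Accessibility and mRNA thus did not pair gene by gene.

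Of 21 interferon-stimulated genes tested, 19 were higher and none lower (median 2.92), against 13.2% higher and a median of 0.07 over all genes. OAS2, XAF1, IFI44L, IFI44, MX1 and MX2 were under 0.1 FPKM in Mock and were tested only through their level after DAC. Promoters were open in both for 16 of the 21, close to the 77.7% of all genes. IFI6 had 7.77 FPKM in Mock and 73.5 after DAC (9.46-fold, interval 7.97 to 11.3) with promoter peaks of 10.6 and 9.63. ISG15, a ubiquitin-like modifier, had 2.48 and 67.5 FPKM (27.2-fold, interval 20.6 to 36.9), with peaks of 3.801 and 2.76. MX1, an antiviral GTPase, had 0.0596 and 2.63 FPKM (44.1-fold, interval 24.4 to 88.7), with peaks of 3.93 and 4.71. IFI27, IFI44L and XAF1 were gained, with peaks of 3.81, 4.52 and 2.87, and IFIT2, listed as lost, is open in both by the annotated TSS. OAS1 was 1.85-fold higher and did not pass the 2-fold limit. With FPKM rescaled 20 of 21 were higher.

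Targets of NRF2, the oxidative stress factor that is constitutively active in A549, were lower with open promoters. Of 16 tested, 5 were lower and none higher (median -0.77), and 15 had a promoter peak in both lists. Over all genes 5.05% were lower. All of the 16 but SRXN1 stood above 10 FPKM in Mock. Over all genes of that level the median was -0.41 and 10.5% were lower, so a part of the fall is not particular to this list. AKR1B10 had 2903 and 500.8 FPKM (5.80-fold lower) with promoter peaks of 6.55 and 3.96. AKR1C2 had 1199 and 329.7 FPKM (3.64-fold lower) with peaks of 10.1 and 7.76. PGD, an enzyme of the pentose phosphate pathway, had 903.3 and 393.9 FPKM (2.29-fold lower) with peaks of 8.775 and 9.45. TXNRD1, at 307.0 and 304.4 FPKM, and GCLM, at 30.1 and 29.5, were nearly level and stood higher after DAC with FPKM rescaled. With FPKM rescaled the median was -0.42, 4 genes passed and PGD did not.

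Intermediate filament genes, which build the scaffold of epithelial and nerve cells, split by level, and so did all genes. The median log2 difference of all genes was 0.35 from 0.1 to 1 FPKM in Mock and -0.41 at 10 FPKM or more. Over all genes 13.2% were higher and 5.05% lower. Of 20 tested filament genes, 6 were higher and none lower (median 0.49), and the count was 2 with a pseudocount of 1 FPKM and 9 with FPKM rescaled. The 6 are KRT17, DES and NES, whose promoters were gained, NEFH and KRT5, which were open in both, and KRT14, which had no promoter peak. All but NES were under 0.1 FPKM in Mock and were tested only through their level after DAC. Of all genes tested in that way 67.35% were higher. NES had 0.647 and 1.53 FPKM, DES 0.0947 and 0.465 and NEFH 1 and 101 reads. The abundant keratins KRT8, KRT18, KRT7 and KRT81 were 1.53- to 1.75-fold lower, with promoter peaks in both lists. KRT86 was gained, with a peak of 2.54, and had 261.3 and 194.8 FPKM. Of 9 tested actin regulators of blood cells, 4 were higher and none lower, and the count was 0 with a pseudocount of 1 FPKM, 6 with 0.01 and 7 with FPKM rescaled. Of the 4, RAC2 and HCLS1 were under 0.1 FPKM in Mock and were tested only through their level after DAC. RAC2, a small GTPase, had 2 and 60 reads, HCLS1, a cortactin-like protein, 1 and 109, CORO1A (coronin 1A) 0.671 and 1.69 FPKM and ARHGDIB 7 and 27 reads. HCLS1 is listed as gained and RAC2 as lost, and both are open in both libraries by the annotated TSS.

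Of 14 tested adhesion genes of the immune synapse 3 were higher, and 11 were open in both, close to the 77.7% of all genes. Over all genes 13.2% were higher and 5.05% lower, and 24.0% and 1.85% with FPKM rescaled. The 3 higher genes, ICAM1, ICAM2 and VCAM1, were under 0.1 FPKM in Mock. They were tested only through their level after DAC and could not be called lower. ICAM1, the ligand of LFA-1, had 2 reads in Mock and 364 after DAC (ratio 154, interval 42.4 to 1280), while its promoter peak of 3.94 was in the Mock list alone. ICAM2 also had its promoter peak (3.11) in Mock alone and had 0 and 40 reads, at least 11.3-fold higher. These genes are thus opposite in peak and mRNA, at weak peaks. Of 8 NKG2D ligands, stress signals to natural killer and γδ T cells, 2 were higher and 1 lower, and 4 and 1 with FPKM rescaled. RAET1E was 4.39-fold higher (interval 3.10 to 6.35) and ULBP1 3.20-fold lower, both with promoter peaks in both lists. Of 6 tested genes of class I antigen presentation 1 was higher, the activator NLRC5, with 0.339 and 1.11 FPKM, and 2 were with FPKM rescaled. HLA-B had a DAC peak of 3.998 and no listed Mock peak, and 10.9 and 19.6 FPKM (1.81-fold, interval 1.65 to 1.98). By the annotated TSS HLA-B has no promoter peak in either library, so its gain depends on the listing. Class I genes are close copies of one another, so reads can be split between them.

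The remaining lists held few differences of class. Over all genes 13.2% were higher and 5.05% lower, and 24.0% and 1.85% with FPKM rescaled. Of 18 p53 targets 3 were higher and 1 lower, and with FPKM rescaled 8 and 0. Promoters were open in both for 16, against 77.7% of all genes. MDM2, the ligase that degrades p53, had 3.12 and 9.13 FPKM with peaks of 5.80 and 5.996, and GDF15 75.6 and 33.9 FPKM. Of 15 tested lung and gut endoderm genes 4 were higher and 1 lower, and with FPKM rescaled 7 and 0, when the median of -0.18 turned to 0.14. The 4 are the mucins MUC5B and MUC1, FOXA3 and SCGB3A2, which had 0 and 4 reads. MUC5B had 2.66 FPKM in Mock and 22.2 after DAC, and 7 DAC-only and 3 Mock-only distal peaks were listed for MUC5B. MUC1 was listed as gained with a peak of 6.04 and is open in both by the annotated TSS. Of 8 tested genes of DNA methylation 2 were higher, DNMT3B (7.38 and 18.9 FPKM) and TET2 (0.360 and 1.00 FPKM), and DNMT1, the maintenance enzyme that DAC traps, had 14.2 and 14.9 FPKM with promoter peaks in both lists. With FPKM rescaled 4 of the 8 were higher.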

How the data were processed

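Omni-ATAC-seq and mRNA-seq were used in A549 cells, Mock or DAC, with 1 library each, grouped by the titles of the samples. For Omni-ATAC-seq, the authors mapped reads to hg19 with BWA 0.7.17-r1188, removed duplicates with Picard 2.21.4 and SAMtools 1.9, called broad peaks in each library with MACS2 2.2.5 and annotated them with ChIPseeker 1.20.0. Per peak, the deposited lists hold a fold enrichment, a score, and significance as −log10 p-values and −log10 q-values. For mRNA-seq, the authors deposited FPKM computed with DESeq2 1.24.0 and, per gene, a mean normalized signal. The submitters' processing notes name TopHat2 2.1.1 and the methods of the study RSEM with bowtie2, so the aligner of the mRNA reads is not settled here. The authors' deposited log2 fold changes, their errors and p-values compare all lines and were not used. All value columns could be tied to a sample. The list cutoffs are low, as the lowest −log10 q-values deposited are 1.003 and 1.006, and the depth of the Omni-ATAC-seq libraries is unknown. Precision is therefore set by the numbers of peaks and genes alone.

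Peaks were compared by a 1 bp overlap in Python 3.11.15 with numpy 2.4.6, pandas 2.3.3 and scipy 1.17.1, and the counts equal those of bedtools 2.31.1. Whole reads behind each FPKM value were recovered from the table, with 100% of values whole within 0.05. Genes at 0.1 FPKM or more in either library were compared on log2(FPKM + 0.1). Up to 3 reads counted as unread. Sequences were read from GRCh37 with pysam 0.24.0 (137 Mock and 180 DAC peaks off chromosomes 1 to 22, X and Y were left out of per-chromosome values), and gene positions are GENCODE annotation of that build. Overlap classes and calls were tested on simulated data. Named genes are the 15 gained, 8 lost, 5 open in both and 5 with neither that differed most at 1 FPKM or more, members of the gene lists, the 8 strongest one-sided peaks of each list, the 5 shared promoter peaks and the 5 windows that differed most in each direction. Haemoglobin and Y-linked genes were left out. The members and gene lists were chosen with earlier results of these data known. Alternatives were a 50% overlap, equal peak numbers, a q-value under 0.01, a 1000 bp promoter, the annotated TSS, other pseudocounts, filters and scaling, a 500 bp window and, chosen after seeing the data, strata of GC content.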

Additional observations from a re-analysis of the deposited data

Results flagged for a closer look

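At equal peak numbers, the ratio of DAC to Mock distal peaks with 20 or more CpG was 1.15 (1.147) in A549, while it was below 1 in each of the other 3 pairs of libraries, at 0.859 in H1299, 0.879 in the pair labelled CL1-5 and 0.977 in the pair labelled PC9. With all listed peaks the ratios were 1.364 in A549, 1.05 in H1299, 0.975 in the pair labelled CL1-5 and 1.14 in the pair labelled PC9, so that the opposite directions in H1299 and PC9 hold only with equal numbers. This difference between lines was not tested, since each line has 1 library per treatment.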

How the results depend on the processing

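Of 73 alternative values, 55 moved by more than their interval or spread and 18 did not. The order of DAC-only and Mock-only promoter shares, the median of lost genes and the median of lung and gut endoderm genes turned under some of them. The share of DAC peaks without a Mock peak was 50.25% with a 50% overlap, 34.33% and 31.11% with equal peak numbers by fold enrichment and by q-value, and 35.7% with q under 0.01. For Mock peaks it was 31.31%, 34.23%, 31.09% and 17.25%. With a 50% overlap, equal numbers and q under 0.01, promoter peaks were 11.76%, 9.02% and 12.22% of DAC-only and 12.32%, 15.34% and 12.91% of Mock-only peaks, and within 1000 bp 5.875% and 5.609%. Median widths were 372, 338 and 357 bp, and 337, 335 and 316 bp. The share of gained genes called higher was 8.076% and 40.38% with pseudocounts of 1 and 0.01, 23.32% without a filter, 21.2% at 1 FPKM or more, 47.39% with a common sum and 51.84% by annotated TSS, and in the same order the median log2 difference was 0.1672, 0.6341, 0.3453, 0.0708, 0.8895 and 1.069, with 0.3758 at equal peak numbers. The share of lost genes called lower was 2.361% with a pseudocount of 1 and 3.219% with a common sum, and their median was -0.1964 at 1 FPKM or more, 0.3901 with a common sum and 0.5361 by annotated TSS, against 0.051 as reported, so it has no settled sign. With a 500 bp window, at least 10 CpG were in 42.8% of DAC-only and 24.37% of Mock-only distal peaks, and equal numbers gave 12.29% for Mock-only. The excess at 10 to 19 CpG over 0 to 2 CpG was 1.432 at equal numbers and 1.408, 1.212, 1.184 and 1.277 within strata of GC content, which were chosen after seeing the data. The cause of these moves was not tested. No paired analysis was possible because A549 has 1 library per treatment, and no library could be left out.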
